A study of Mus musculus with 11 samples.

Results

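Tendon and connective tissue genes were followed through the early mandibular arch of the mouse. The set holds 10 genes: Scx, Tnmd, Mkx, Tnc, Thbs4, Thbs2, Postn, Fbln5, Fbn1 and Islr. A probe set, the group of short probes that reports 1 transcript on an Affymetrix array, was counted as a member where the annotation table gave it exactly 1 gene symbol and that symbol was in the set. This gave 14 probe sets of 45101, for 9 of the 10 genes and of 18194 named genes in all. Fbn1, which encodes the microfibril protein fibrillin-1, had no named probe set here and was not analysed. The tissue came from ICR mouse embryos, for which the labels state no agent, mutation or transgene. The arch was cut into a medial piece, taken at E10.5 from its distal end, and the lateral remainder. The 6 groups were lateral E9.7 (1 array), lateral E10.5 (3 arrays), medial E9.7 (1 array), medial E10.5 (3 arrays), medial E11.5 (2 arrays) and medial E14.5 (1 array). The E14.5 piece is labelled as tongue, its medial or anterior part, so stage and dissection changed together there. RNA of 40 embryos per time point was pooled, so p-values measure the spread between arrays, which may be technical, and in such bulk tissue fewer cells of a type and less RNA per cell cannot be told apart.

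Tendons and the connective tissue of the face and tongue arise from cranial neural crest mesenchyme, while the tongue muscles are made by myoblasts that migrate in. The bHLH factor Scx marks tendon progenitors, the homeodomain factor Mkx acts in later tendon maturation, and Tnmd encodes tenomodulin, a membrane protein of differentiated tendon cells. Tnc, Thbs2, Thbs4 and Postn encode matricellular proteins, which sit in the matrix and modulate adhesion and fibril assembly. Fbln5 and Fbn1 encode parts of elastic fibres and microfibrils, and Islr encodes a secreted leucine-rich repeat protein of mesenchymal stromal cells.

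All values are log2 signals after quantile normalization over the 11 arrays. In the deposited scale the median was 2.37 for replicate 1 of medial E10.5 and 2.47 for replicate 1 of medial E11.5, against 5.20 to 5.73 on the others. The 5' probe set for 18S ribosomal RNA read 11.8 and 11.4 on these arrays after normalization, against 7.51 to 9.32 on the others, and its part in the results was not tested. The number of arrays limits the precision. Spiked-in control probe sets put the arrays in 4 groups, called batches here: batch 1 (both E9.7 arrays, lateral E10.5 replicate 1, medial E10.5 replicate 2, medial E11.5 replicate 2), batch 2 (both arrays of low signal), batch 3 (lateral E10.5 replicates 2 and 3, medial E10.5 replicate 3) and batch 4 (E14.5). A gene was dim where it lay under 4.86, the 50th percentile of all values. Of 6 arch mesenchyme markers, 6 reached that level on every array up to E10.5, 4 on both E11.5 arrays and 5 on the E14.5 array. The arch patterning genes Dlx2 (4.85 and 4.70) and Dlx5 (4.32 and 3.37) were the dim ones at E11.5, and Dlx5 (4.50) was the dim one at E14.5.

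The tendon transcription factors had low signals: Scx reached the dim level on 8 of 11 arrays with values up to 5.95, and Mkx on 1. For Scx, the lateral arrays read 4.63 at E9.7 and 5.60, 5.25 and 5.66 at E10.5. In medial tissue Scx read 5.05 at E9.7, then 4.70, 4.98 and 4.38 at E10.5, 5.79 and 5.95 at E11.5, and 5.32 at E14.5. Its highest group was thus medial E11.5 and its lowest lateral E9.7, over a span of 1.24, and the lateral and medial arrays of E10.5 did not overlap. The Scx gene lies inside the span of Bop1, a ribosome biogenesis gene, in the GRCm38.p6 annotation. Bop1 read 8.03 to 9.29 over the same arrays, with its lowest value at E14.5 and its highest in lateral E9.7 tissue. The other Scx probe set was dim on every array (3.28 to 4.21).

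Mkx read 4.05 in lateral E9.7 tissue and 4.84, 4.74 and 4.72 in lateral E10.5 tissue. The medial arrays gave 3.95 at E9.7, 3.27, 4.05 and 4.49 at E10.5, 4.55 and 4.44 at E11.5, and 4.90 at E14.5. The array on which Mkx passed the dim level was that of E14.5, and no neighbouring pair of groups in its order of levels was apart by more than the largest SD within a group (0.62). Tnmd was dim on all 11 arrays: it read 2.55 to 2.95 on the 10 arrays up to E11.5 and 3.79 at E14.5. Neither gene entered the fit of the tested comparisons.

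**Figure D1:**
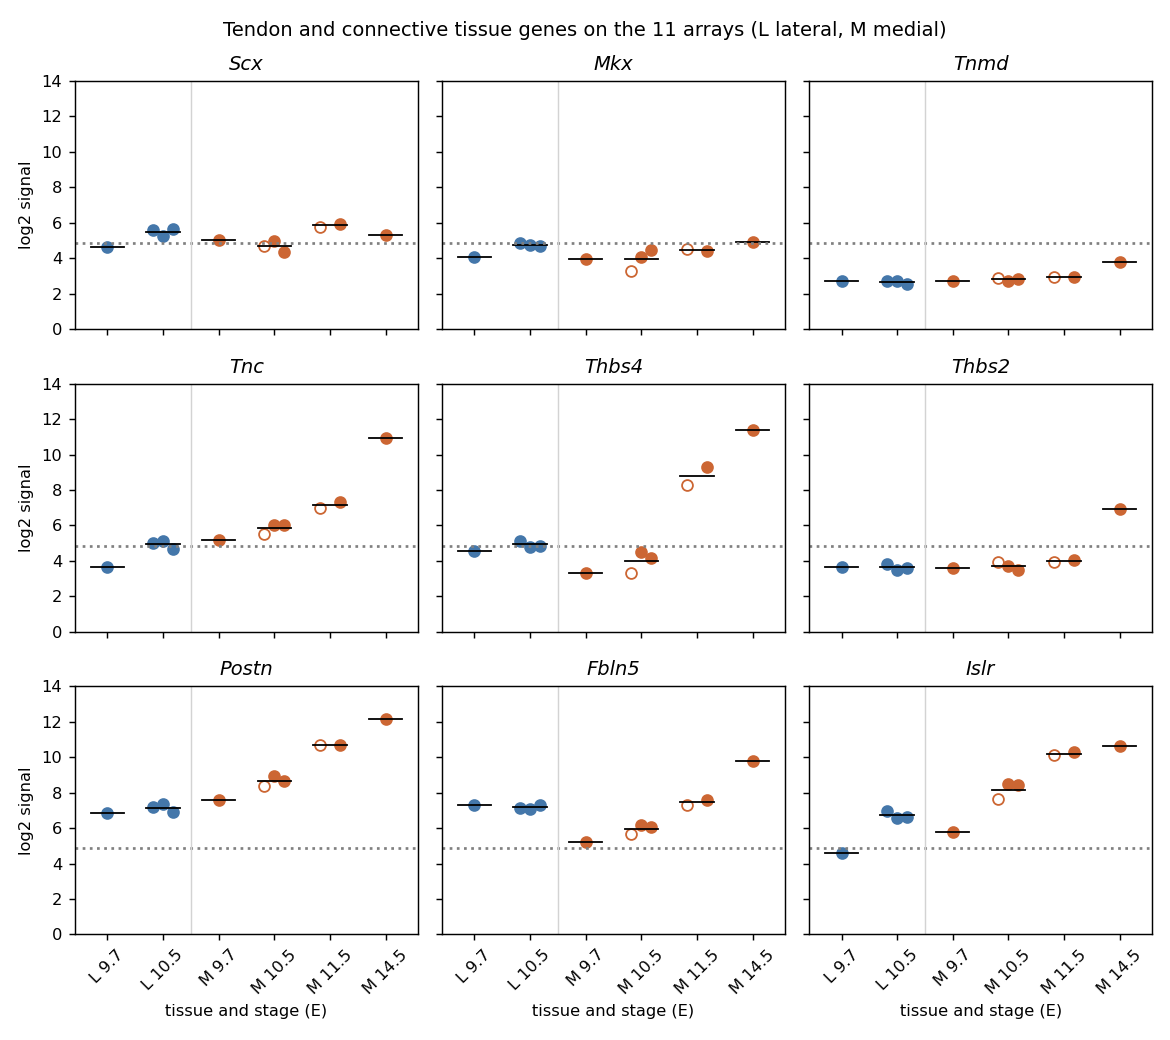
Log2 signal (quantile normalized) of the 9 measured genes, by tissue and stage; points are arrays, black bars group means, open points the 2 arrays of low deposited signal, and the dotted line the dim level of 4.86. Scx, Mkx and Tnmd stay near or under the line, while Tnc, Thbs4, Postn, Fbln5 and Islr are higher at each later medial stage and Thbs2 leaves its low level at E14.5.

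The matrix genes covered a far wider range. Thbs4, which encodes a thrombospondin of tendon and muscle attachments, read 3.31 in medial E9.7 tissue and 3.32, 4.49 and 4.15 in medial E10.5 tissue. It then read 8.28 and 9.30 at E11.5 and 11.37 at E14.5, while lateral tissue gave 4.55 at E9.7 and 5.13, 4.79 and 4.87 at E10.5. Thbs4 thus went from dim to bright between E10.5 and E11.5, and the 4 lower groups did not differ from their neighbours in the order by more than the largest SD (0.72). Tnc, which encodes the anti-adhesive glycoprotein tenascin-C, read 5.16 in medial E9.7 tissue, 5.53, 6.03 and 6.04 at E10.5, 6.97 and 7.31 at E11.5, and 10.92 at E14.5. Lateral Tnc was 3.67 at E9.7 and 5.02, 5.13 and 4.68 at E10.5, below every medial array of the same stage. The other Tnc probe set was dim throughout (2.25 to 3.35) and was also highest at E14.5.

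Postn encodes periostin, a matrix protein induced by TGF-beta signals and abundant in fibrous connective tissue. In medial tissue it read 7.59 at E9.7, 8.39, 8.93 and 8.68 at E10.5, 10.67 and 10.69 at E11.5, and 12.16 at E14.5, and in lateral tissue 6.87 at E9.7 and 7.18, 7.35 and 6.90 at E10.5. Each medial stage lay above the one before it, and Postn was bright on all 11 arrays. Islr read 5.77, then 7.62, 8.48 and 8.42, then 10.10 and 10.30, then 10.65 over the 4 medial stages, against 4.61 at E9.7 and 6.97, 6.57 and 6.62 at E10.5 in lateral tissue. Its last step, from E11.5 to E14.5, was smaller than its largest SD within a group (0.48).

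Fbln5, which encodes an elastic fibre assembly protein, had another pattern. It read 7.32 at E9.7 and 7.15, 7.09 and 7.29 at E10.5 in lateral tissue, but 5.23 at E9.7 and 5.65, 6.20 and 6.05 at E10.5 in medial tissue. The medial values were 7.32 and 7.60 at E11.5, beside the lateral values, and 9.76 at E14.5. The other Fbln5 probe set was dim on all arrays (3.17 to 3.82). Thbs2, a thrombospondin that influences collagen fibril assembly, read 3.47 to 4.06 on the 10 arrays up to E11.5 and 6.94 at E14.5. Its other probe sets read 2.43 to 3.96 and 2.35 to 3.10 on those 10 arrays and 6.75 and 6.04 at E14.5, so all 3 were above the dim level at E14.5 alone.

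RefSeq promoter windows (GRCm38.p6) were on hand for 8 of the 10 genes. The 250 bases before the start site are shown for the matricellular genes and Islr, which had their highest values at E14.5, so that the upstream sequences of genes high in the same tissue can be compared. For Postn the start shown was chosen after the matches were seen. Capitals mark matches, on either strand, to TATAAA (the TATA box), CAGATG (an E-box, the kind of site bHLH factors bind), TGANTCA (AP-1), GCGNGGGCG (Egr factors) or the CArG box (serum response factor).
Tnc, upstream of 2 starts, chr4:64047016-64047265, minus strand: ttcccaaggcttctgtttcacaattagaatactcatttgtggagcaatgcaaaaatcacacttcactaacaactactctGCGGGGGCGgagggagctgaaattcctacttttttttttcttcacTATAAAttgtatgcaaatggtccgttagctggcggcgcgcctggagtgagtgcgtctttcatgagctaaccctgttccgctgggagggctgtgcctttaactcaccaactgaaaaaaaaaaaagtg
Thbs4, chr13:92794819-92795068, minus strand: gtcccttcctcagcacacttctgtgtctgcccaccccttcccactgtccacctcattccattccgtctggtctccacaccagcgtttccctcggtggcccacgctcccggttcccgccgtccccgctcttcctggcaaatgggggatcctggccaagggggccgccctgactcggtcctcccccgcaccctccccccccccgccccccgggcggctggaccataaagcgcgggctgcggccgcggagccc
Thbs2, chr17:14694263-14694512, minus strand: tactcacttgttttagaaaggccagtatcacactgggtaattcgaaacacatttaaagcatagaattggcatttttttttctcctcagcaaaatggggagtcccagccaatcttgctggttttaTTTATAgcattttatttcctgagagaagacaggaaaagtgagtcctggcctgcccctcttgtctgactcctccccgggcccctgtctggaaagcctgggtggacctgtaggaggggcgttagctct
Postn, downstream of 2 starts, chr3:54360857-54361106, plus strand: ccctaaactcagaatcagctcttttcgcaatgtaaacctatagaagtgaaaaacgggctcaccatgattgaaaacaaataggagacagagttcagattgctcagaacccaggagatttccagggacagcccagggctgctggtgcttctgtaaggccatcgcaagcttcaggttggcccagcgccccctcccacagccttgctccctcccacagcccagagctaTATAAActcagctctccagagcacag
Islr, chr9:58158555-58158804, minus strand: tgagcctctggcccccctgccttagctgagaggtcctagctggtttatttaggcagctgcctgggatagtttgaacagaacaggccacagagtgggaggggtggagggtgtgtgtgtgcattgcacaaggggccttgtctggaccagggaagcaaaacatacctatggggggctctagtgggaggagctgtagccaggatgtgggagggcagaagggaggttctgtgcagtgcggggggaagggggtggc

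No motif was held by all of the windows shown. Postn held TATAAA at -26 to -21 from its downstream start. Tnc held TATAAA at -126 to -121 and GCGGGGGCG at -171 to -163 of its upstream start. Thbs2 held the TATA letters on the opposite strand at -126 to -121, and Thbs4 and Islr held none of the 5 motifs. Fbln5 and Tnmd were also highest at E14.5 but are not shown. Their windows, that of Fbn1 and that of the upstream Postn start held none of the 5 motifs either. The window of the downstream Tnc start held the same TATAAA and GCGGGGGCG. Among all 32851 windows of this length, 12.4% held TATAAA, 14.4% CAGATG, 6.75% TGANTCA, 4.70% GCGNGGGCG and 1.47% the CArG box. GC content was 70.8% for Thbs4 and 44.8% for Tnc. A match of letters is a description and not a binding site.

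At E10.5, Postn and Islr were higher and Fbln5 lower in medial than in lateral tissue, by more than 2-fold, with Tnc and Scx showing smaller differences. Postn was 2.88-fold higher, a log2 difference of 1.52 ± 0.17 (SE, 3 arrays in each tissue, adjusted p = 0.00108 in limma). Islr was higher by 1.46 ± 0.23 (adjusted p = 0.00619) and Tnc by 0.92 ± 0.19 (adjusted p = 0.0231). Fbln5 differed by -1.21 ± 0.16 (adjusted p = 0.00249) and Scx by -0.82 ± 0.17 (adjusted p = 0.0306). In each of these 5 genes, every medial array lay on the same side of every lateral array. Thbs4 was at -0.94 ± 0.33 and did not pass (adjusted p = 0.187), although its arrays did not overlap either.

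Among all 11968 genes tested, 4.63% were called (2.82% for higher medial values and 1.80% for lower ones), and in 25.0% the arrays of the tissues did not overlap. Of the 10 genes of the set, 6 entered the fit. Mkx (-0.83), Tnmd (0.14) and Thbs2 (0.07) did not enter it and have no test. Within batch 1 and batch 3, which held both tissues, the difference was 1.76 and 1.55 for Postn, 1.51 and 1.83 for Islr, 1.01 and 1.14 for Tnc, -0.95 and -1.14 for Fbln5, and -0.63 and -1.08 for Scx. Mkx differed by -0.79 in batch 1 and by -0.24 in batch 3.

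The calls of Tnc and Scx lay near the threshold and were lost with other choices of arrays, while the difference without any 1 array stayed at 0.79 to 1.09 for Tnc and -0.97 to -0.67 for Scx. For Tnc the adjusted p became 0.0898 or 0.0743 when medial replicate 2 or 3 was left out, and 0.0620, 0.0508 or 0.104 when lateral replicate 1, 2 or 3 was. For Scx it became 0.0646 or 0.0756 with medial replicate 1 or 3 left out, and 0.106 or 0.144 with lateral replicate 1 or 3 left out. Scx also did not pass with arrays centred on their medians (adjusted p = 0.0855), with the replicate number as a block (0.0704), with each probe set fitted on its own (0.0503) or without the array pair of low signal (0.0878). With batch as a fixed effect, Thbs4 passed (-0.67, adjusted p = 0.00226). Markers of epithelium and endothelium differed too: the log2 of the summed signal of 6 epithelial markers was 11.01 to 11.19 in medial and 9.97 to 10.16 in lateral E10.5 tissue, and that of 6 endothelial markers 10.04 to 10.09 against 9.43 to 9.55. All 6 of each list were above the dim level on these arrays. Among the epithelial markers Krt5 overlapped (5.36 to 5.5 in medial and 5.49 to 5.89 in lateral tissue). The pericyte marker Rgs5 read 9.10 to 9.51 in medial and 3.64 to 4.08 in lateral tissue, while the sum of its list of 6 overlapped (10.30 to 10.97 and 10.20 to 10.40, with 4 and 3 above the dim level). The sum of 7 cartilage markers was lower in medial tissue (11.54 to 11.81 against 12.01 to 12.10, with 4 above the dim level on each array). Among them Sox9 read 5.39 to 6.89 against 7.84 to 8.31, and Col2a1 9.48 to 9.67 against 10.52 to 10.66. Col9a1 overlapped (10.94 to 11.42 against 11.16 to 11.31), as did Hapln1, Acan, Col11a2 and Matn1. The part of these cell types in the differences was not tested.

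**Figure D2:**
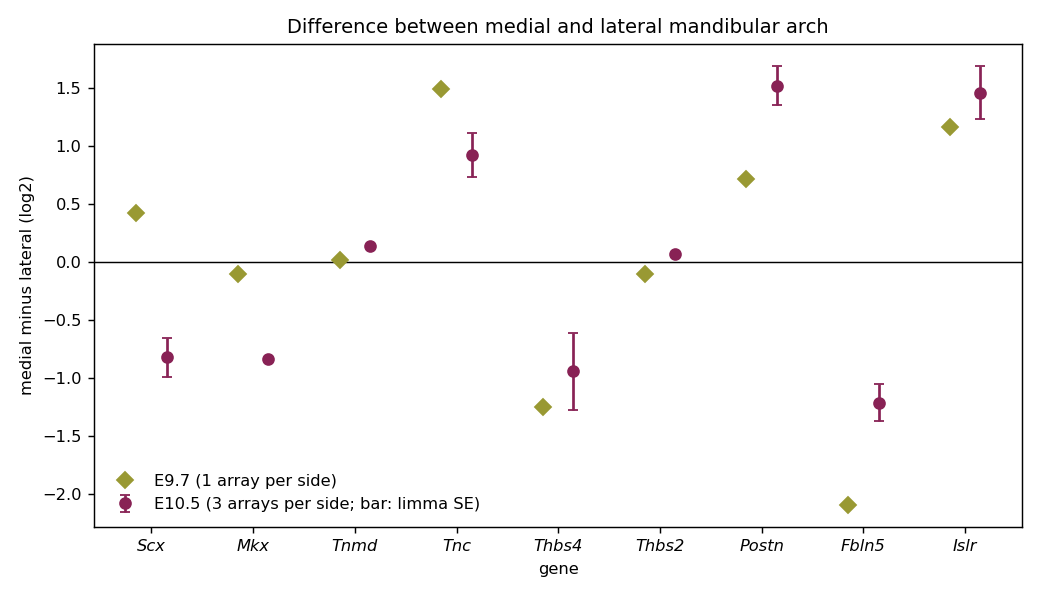
Medial minus lateral log2 signal of each gene (x axis) at E9.7, as the difference of 2 arrays, and at E10.5, as the difference of group means with the limma SE where the gene was fitted. Tnc, Postn and Islr lie above 0 and Thbs4 and Fbln5 below 0 at both stages, whereas Scx is at 0.42 at E9.7 and -0.82 at E10.5.

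One array per side was available at E9.7, so no test is given and the differences have no replicate check. Fbln5 was 4.26-fold lower (-2.09) and Thbs4 2.38-fold lower (-1.25) in medial tissue, with Thbs4 dim on both arrays. Tnc was 2.81-fold higher (1.49), its lateral value being dim, and Islr 2.24-fold higher (1.16), likewise against a dim lateral value. Postn differed by 0.72, Scx by 0.42, Mkx and Thbs2 by -0.10 each and Tnmd by 0.02. Among all 12964 genes with at least 1 array at the dim level, 1.63% were 2-fold apart here (0.987% higher and 0.640% lower in medial tissue). In a limma fit that assumed the single arrays to vary like the replicated groups, chosen after the values were seen, Fbln5 had an adjusted p of 0.0282 and the other members fitted did not pass, beside 0.0919% of all genes called higher and 0.0752% called lower.

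Between E10.5 and E11.5, 6 members rose in medial tissue, with Thbs4 far ahead of the others. Thbs4 was higher at E11.5 by 4.80 ± 0.37 (log2 ± SE, n = 2 and 3, limma adjusted p = 9.23e-05), a 27.9-fold difference that starts from dim values. Against the dim level in place of its E10.5 mean, the E11.5 mean of Thbs4 was 15.2-fold higher. Islr rose by 2.02 ± 0.25 (adjusted p = 0.00126), or 4.07-fold, and Postn by 2.01 ± 0.19 (adjusted p = 0.000246), or 4.04-fold. Fbln5 rose by 1.5 ± 0.18 (adjusted p = 0.000935), Tnc by 1.27 ± 0.21 (adjusted p = 0.00627) and Scx by 1.19 ± 0.20 (adjusted p = 0.00658). In each of these the E11.5 arrays lay above all E10.5 arrays.

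Over all genes tested, 6.92% were called between these stages (4.32% higher and 2.60% lower at E11.5), and in 28.4% the arrays did not overlap. Mkx (0.56), Thbs2 (0.29) and Tnmd (0.11) were outside the fit. This comparison uses the same medial E10.5 arrays as the one between medial and lateral tissue, so values of both are not independent. Within batch 1 and batch 2, the difference was 4.81 and 4.96 for Thbs4, 1.76 and 2.28 for Postn, 1.82 and 2.48 for Islr, 1.40 and 1.67 for Fbln5, 1.28 and 1.44 for Tnc, and 0.97 and 1.09 for Scx. Without medial E11.5 replicate 2, Scx (adjusted p = 0.0587) and Tnc (0.0610) did not pass. Scx also did not pass with array weights (adjusted p = 0.0894) or without the arrays of low signal (0.0609).

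**Figure D3:**
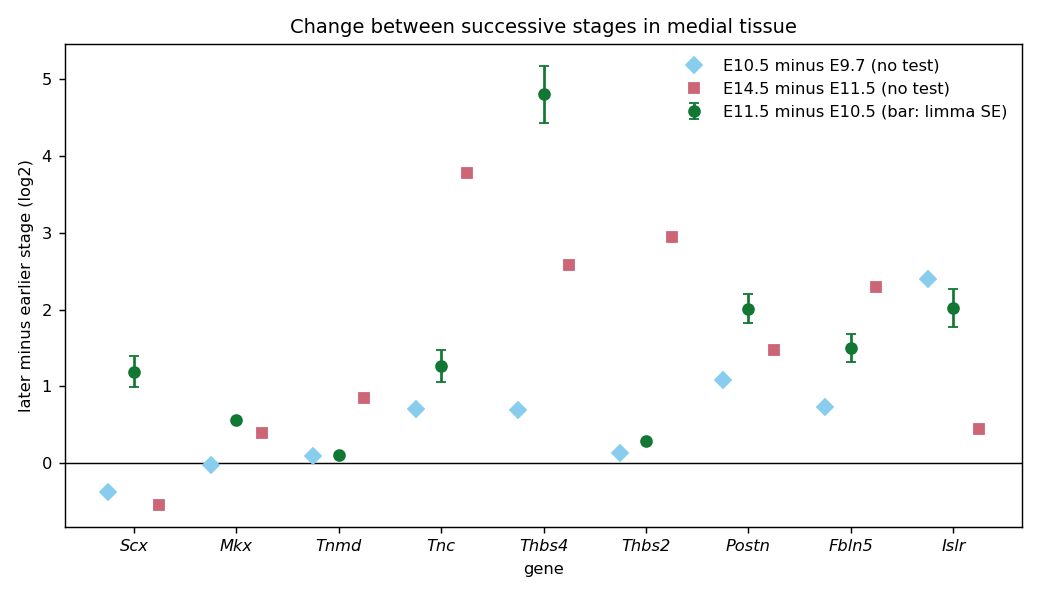
Difference in log2 signal between successive stages of medial tissue for each gene (x axis), with the limma SE where the gene was fitted; steps without bars have 1 array on a side or a gene outside the fit. Thbs4 has its greatest step at E11.5 (4.80), Tnc (3.78) and Thbs2 (2.94) at E14.5, and Islr at E10.5 (2.40).

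The E14.5 piece differed from medial E11.5 tissue by still higher matrix genes and a lower Scx value. The E14.5 array was alone in batch 4, so stage, dissection and batch cannot be told apart here, and no value within a batch exists. With a single E14.5 array the main comparison has no test of its own, and genes were counted when its value was at least 2-fold outside both E11.5 values. Tnc was 13.7-fold higher (3.78), Thbs2 7.65-fold (2.94), Thbs4 5.97-fold (2.58), Fbln5 4.93-fold (2.30) and Postn 2.79-fold (1.48). Thbs2 and Mkx entered this comparison through the E14.5 array alone, so that Thbs2 being higher there was fixed by the filter, and 4 of the other 6 members were counted. The Thbs2 fold starts from dim values, and against the dim level its E14.5 value was 4.22-fold higher. Its 3 probe sets gave 3.15, 3.00 and 2.94. Tnmd (0.85), Islr (0.45) and Mkx (0.40) were higher by less, and Scx was at -0.54, with 0.03 for its dim probe set and 0.94 on the deposited scale. Of all 12964 genes, 10.7% were counted as higher and 3.53% as lower, 14.2% in all, and the median of all genes was 0.08. Without the 507 genes that, like Thbs2, reached the dim level on the E14.5 array alone, 8.16% were counted as higher and 3.67% as lower. With arrays centred on their medians these were 2088 higher and 270 lower, against 1382 and 457. In the limma fit that assumed the lone array to vary like the others, Tnc (adjusted p = 5.24e-05), Fbln5 (0.000278), Postn (0.00279) and Thbs4 (0.00494) passed, while Scx (0.157) and Islr (0.368) did not. That fit called 28.4% of all genes (16.6% higher and 11.8% lower at E14.5).

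From E9.7 to E10.5, Islr was the member that was higher by the greatest amount in both tissues. It was higher by 2.40 in medial tissue, or 5.28-fold, and by 2.11 in lateral tissue, or 4.30-fold, where its E9.7 value was dim. Tnc was 2-fold beyond its E9.7 array in lateral tissue (1.28) but not in medial tissue (0.71). Postn was higher by 1.08 in medial tissue, where 2 of 3 arrays lay at least 2-fold above the E9.7 array, and by 0.28 in lateral tissue. With the assumption of equal spread for lone arrays, Islr passed in medial (adjusted p = 0.0114) and lateral tissue (0.0227), and Tnc in lateral tissue did not (0.0672). That fit called 0.869% of all genes higher and 0.334% lower at E10.5 in medial tissue, and 0.735% higher and 0.267% lower in lateral tissue.

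Of all 12964 genes, 0.910% were 2-fold beyond the E9.7 array in medial tissue (0.579% higher, 0.332% lower) and 1.22% in lateral tissue (0.864% higher, 0.355% lower). With arrays centred on their medians the split was 58 higher and 76 lower in medial tissue, against 75 and 43, and 65 higher and 77 lower in lateral tissue, against 112 and 46. Fbln5 was at 0.73 in medial and -0.15 in lateral tissue, Scx at -0.37 and 0.87, Thbs4 at 0.69 and 0.38, and Mkx at -0.02 and 0.71. Thbs2 was at 0.13 and -0.05 and Tnmd at 0.10 and -0.03.

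Skeletal muscle markers were higher at the same stages as Thbs4. The log2 of the summed signal of 12 muscle markers was 8.15 to 8.87 on the 8 arrays up to E10.5, 12.26 and 12.62 at E11.5, and 15.55 at E14.5. Of the 12, between 2 and 8 were above the dim level up to E10.5, 11 on both E11.5 arrays and 12 at E14.5. Myog, a factor of differentiating myoblasts, read 3.62 to 4.95 up to E10.5, 9.44 and 9.7 at E11.5, and 11.34 at E14.5. The summed signal of 6 smooth muscle and pericyte markers was 9.85 to 10.97 up to E10.5, 11.82 and 12.29 at E11.5, and 12.93 at E14.5. Acta2 among them read 6.34 to 7.03 in medial E10.5 tissue, 11.49 and 11.89 at E11.5, and 12.51 at E14.5. Rgs5 went the other way at E11.5 (6.71 and 6.5 against 9.1 to 9.51 in medial E10.5 tissue) and read 7.26 at E14.5. Tagln was slightly higher at E11.5 (5.96 and 6.25 against 5.52 to 5.91). Pdgfrb overlapped (9.11 and 9.99 against 8.91 to 10.04), and Cnn1 was dim throughout (3.56 to 4.08). The Myh11 probe set, for the smooth muscle myosin heavy chain, stayed dim on all arrays (3.76 to 4.59).

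Cartilage markers were lower at the later stages: 7 of them summed to 11.54 to 12.10 up to E10.5, 10.78 and 11.30 at E11.5, and 8.80 at E14.5. Summed macrophage markers were 6.67 to 7.77, then 8.05 and 8.16, then 9.35, and 4 nerve and glial markers 7.00 to 7.64, then 8.40 and 8.52, then 9.02. Against medial E10.5, Csf1r (7.36 and 7.55) and Adgre1 (5.43 and 4.89) were higher at E11.5. Lyz2 was lower (4.49 and 4.72 against 4.84 to 5.34), and Cd68 and Aif1 overlapped. Of the nerve list, Nefl was higher at E11.5 (7.55 and 7.8 against 3.7 to 4.66). Tubb3 was lower (5.91 and 5.62 against 6.03 to 6.09), and Sox10 and Stmn2 overlapped. The summed epithelial markers were lower at E11.5 (9.98 to 10) than in medial E10.5 tissue and highest at E14.5 (12.37). Krt5 went the other way at E11.5 (6.11 and 5.71 against 5.36 to 5.5). At E14.5 Krt5 (10.42) and Krt14 (10.78) read highest of the list. Krt8 (8.83) and Krt18 (8.64) lay under their medial E9.7 values there (10.03 and 10.27). The part of these tissues in the changes of the set was not tested.

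**Figure D4:**
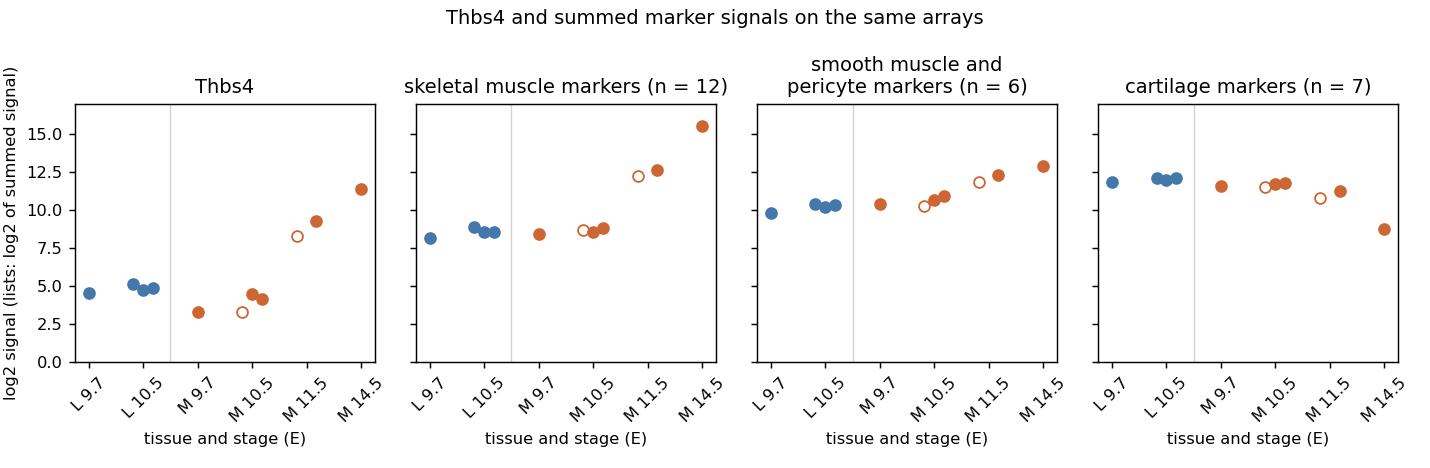
Log2 signal of Thbs4 and log2 of the summed signal of skeletal muscle (12 genes), smooth muscle and pericyte (6) and cartilage markers (7), by tissue and stage; points are arrays and open points the 2 arrays of low deposited signal. Thbs4 and the muscle lists step up at E11.5 and again at E14.5, and the cartilage list is lowest at E14.5 (8.80). In the smooth muscle and pericyte list, Acta2 steps up at E11.5 while Rgs5 is lower than in medial E10.5 tissue.

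Other genes of tendon and connective tissue were read in 5 lists of 69 genes, of which 64 had a named probe set. Among 8 tested tendon regulators and signals, 4 rose and none fell from E10.5 to E11.5: Egr1, a zinc finger factor that acts in tendon (1.43 ± 0.14, limma adjusted p = 0.000344), Tgfb3 (1.26 ± 0.24, adjusted p = 0.0122), Tgfb2 (1.05 ± 0.19, adjusted p = 0.0121) and the receptor gene Tgfbr2 (0.93 ± 0.17, adjusted p = 0.0104). The list median was 0.86, and 0.79 and 1.03 within batches 1 and 2, beside 0.00 for all genes tested. Of all genes tested, 4.32% were called higher and 2.60% lower at E11.5. At E14.5 Egr1 was higher again (2.64), as were Tgfbr2 (1.71) and Tgfb3 (1.63), while Tgfb2 was at -0.98. Between tissues at E10.5, Tgfb2, a ligand that induces Scx in the embryo, was higher in medial tissue by 2.17 ± 0.17 (adjusted p = 0.000239), and the homeobox gene Six2 differed by -1.40 ± 0.31 (adjusted p = 0.0389). The remaining 6 tested members of that list did not pass at E10.5, and the list median was 0.07.

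Of 13 tested elastic fibre and microfibril genes, 6 rose and none fell from E10.5 to E11.5, beside 4.32% and 2.60% of all genes tested. The list median was 0.85 (0.93 and 0.78 within batches 1 and 2). The genes that rose were led by Lox, which encodes the enzyme that cross-links collagen and elastin (2.46 ± 0.26, adjusted p = 0.000486), Ltbp3 (1.16 ± 0.12, adjusted p = 0.000503) and the fibulin gene Efemp1 (1.83 ± 0.29, adjusted p = 0.00566). Lox (4.57) and Efemp1 (4.19) started from dim means in medial E10.5 tissue. At E14.5, 8 of 15 were counted as higher, among them elastin (Eln, 3.66) and again Lox (3.10). Of the 8, Ltbp2 and Mfap5 reached the dim level on the E14.5 array alone. Without them the count was 6 of 13, beside 8.16% of all genes chosen likewise. In medial against lateral tissue at E10.5, Efemp1 (-2.76 ± 0.26, adjusted p = 0.000517) and Lox (-1.45 ± 0.23, adjusted p = 0.00735) were lower, in the direction of Fbln5, and the other 11 did not pass. The medial side of both differences was dim. The list median there was 0.00.

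The list of matricellular genes outside the set also held Islr2, which was not put there as a matricellular gene proper. Of its 10 tested genes, 6 rose, Islr2 among them, and none fell from E10.5 to E11.5 (list median 0.89, and 0.77 and 0.97 within batches 1 and 2). The shares of all genes tested were 4.32% and 2.60%. Smoc2, a calcium-binding matrix protein gene, rose by 4.52 ± 0.23 (adjusted p = 1.32e-05) from dim values, and Islr2, the paralogue of Islr, by 1.61 ± 0.16 (adjusted p = 0.000338). Among the groups with replicates, the mean of Islr2 was above the dim level at E11.5 alone (6.11). It was 4.50 in medial and 4.20 in lateral E10.5 tissue, so its entry into the fit and its rise are not independent. Tgfbi, the periostin relative, rose by 0.96 ± 0.14 (adjusted p = 0.00316). In medial against lateral tissue at E10.5, 2 were higher and 3 lower, beside 2.82% and 1.80% of all genes tested. Tgfbi was at 1.19 ± 0.13, Smoc2 at -2.94 ± 0.20 and Ccn2, which encodes connective tissue growth factor, at -2.69 ± 0.29. The medial mean of Smoc2 was dim (4.18). At E14.5, 2 of 11 were counted as higher, Ccn2 (2.25) and Ccn3 (1.53), and 1 as lower, Smoc1 (-1.78). Ccn3 reached the dim level on that array alone, and without it the counts were 1 and 1 of 10, beside 8.16% and 3.67% of all genes chosen likewise.

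Fibril-forming and fibril-associated matrix genes changed unevenly. Of 13 tested, 4 rose and 1 fell from E10.5 to E11.5, beside 4.32% and 2.60% of all genes tested. Those that rose included Col6a1 (2.01 ± 0.36, adjusted p = 0.00954), Col5a1 (1.21 ± 0.21, adjusted p = 0.00908) and Col1a2 (1.15 ± 0.21, adjusted p = 0.0113), whereas the keratan sulfate proteoglycan gene Lum fell by 2.01 on the log2 scale (SE 0.22, adjusted p = 0.000609). The list median was 0.26, and 0.45 and 0.36 within batches 1 and 2. At E14.5, 7 of 14 were counted as higher, among them Col6a3 (3.91) and Lum (3.50). Col14a1 (5.23, from dim values) reached the dim level on the E14.5 array alone. Without it the count was 6 of 13, beside 8.16% of all genes chosen likewise. In medial against lateral tissue at E10.5, Lum (1.95 ± 0.20) and Dcn (1.86 ± 0.22, adjusted p = 0.00156) were higher and 11 did not pass.

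Of 10 connective tissue factors, 4 rose and 3 fell from E10.5 to E11.5, beside 4.32% and 2.60% of all genes tested. Osr1 (2.83 ± 0.15, adjusted p = 1.82e-05) and Hic1 (1.79 ± 0.24, adjusted p = 0.00192) were up. The mesenchymal homeobox genes Prrx1 (-2.13 ± 0.18, adjusted p = 0.000154) and Prrx2 (-1.81 ± 0.12, adjusted p = 4.06e-05) were down. At E14.5, Osr1, which marks irregular connective tissue fibroblasts, was lower by 3.21 (log2 difference -3.21) than at E11.5. In medial against lateral tissue at E10.5, Osr2 (-2.59 ± 0.24, adjusted p = 0.000466) and Tcf4 (-0.76 ± 0.16, adjusted p = 0.0261) were lower. Among the groups with replicates, the mean of Osr2 was above the dim level in lateral tissue alone (6.35). It was 3.76 in medial E10.5 and 4.69 in medial E11.5 tissue, so its entry into the fit and this difference are not independent. Tcf4 is not the same gene as Tcf7l2, which is also in the list. Tcf7l2 did not pass in limma between the tissues (-0.06 ± 0.13, adjusted p = 0.873) or from E10.5 to E11.5 (0.53 ± 0.15, adjusted p = 0.0738). The list median at E11.5 was 0.61, and 0.69 and 0.45 within batches 1 and 2.

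Genes with the most similar profile were named by Pearson's r over the 6 group means, among genes whose means spanned at least 2 log2 units. The group means share arrays and normalization, and those of genes that are high at E14.5 alone are set by that 1 array. Thbs4 was most like Hes6 (r = 0.999), Mrln (0.997) and Rxrg (0.997); Hes6 and Mrln, which encodes myoregulin, are known from muscle. Tnc was most like Mfap3l (0.999), Adgrl3 (0.998) and Itpripl2 (0.998), Postn like Lin7a (0.998), Klf14 (0.997) and Ddr1 (0.997), and Islr like Tmem176b (0.998), Serinc2 (0.996) and Nrk (0.995). Fbln5 was most like Rgmb (0.980), Lrig1 (0.978) and Dbndd1 (0.963). For Thbs2 they were P2ry10b, Fam155a and Dpt, the last encoding dermatopontin of the fibroblast matrix (r = 0.999). For Scx the highest r values were lower, at 0.832 for Smoc2, 0.826 for Cyp26b1 and 0.822 for Scrn1. Mkx was most like Osr2 (0.963), Efemp1 (0.960) and Trib2 (0.943), and Tnmd, dim on all arrays, like Nenf, Sdk2 and Atraid.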

How the data were processed

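Total RNA of pooled embryos was made into biotinylated cRNA from 3 ug per sample, per the labels' protocols, and 1 array was run per sample. The deposited values are log2 signals that the authors produced with Affymetrix Expression Console 1.1, per the submitters' processing notes; the algorithm is not given in the sources used here, and the log2 base was inferred from the range of the values. Because 2 arrays were on a lower scale, quantile normalization over 11 arrays came first. Probe sets were named from the platform annotation, with symbols updated through Entrez IDs for 34754 of them; 34958 had 1 symbol, 932 several and 9211 none here. A gene was its probe set with the highest mean, and entered the fit with 2 or more values at or above the 50th percentile (4.86) among the 8 arrays of groups with replicates.

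Tested comparisons used limma 3.58.1 in R 4.3.3 with 6 group means (residual degrees of freedom, 5). Benjamini-Hochberg adjustment ran over 11968 genes, with calls under 0.05. Comparisons with 1 array on a side were not tested; genes were counted when the lone value was 2-fold or more outside the whole other group, among 12964 genes with at least 1 array at the percentile. Batches were read from 45 spiked-in probe sets. The fit was tested on simulated data. The members and lists were chosen with earlier results of these data known. Named were all members, up to 4 genes per list and comparison (called genes with the smallest adjusted p, or, untested, the largest differences), and 3 genes of like profile per member; not all are printed. Alternatives were the scaling, the filter, the summary of probe sets, the variance model, array weights, replicate block, batch, thresholds and leaving out arrays. Chosen after seeing the data were the fit with lone arrays, the interaction test, the values within batches and the E14.5 counts without genes that passed the filter there alone. Replicate numbers did not pair the E10.5 samples: deviations of medial and lateral arrays of the same number correlated at 0.13, -0.29 and 0.48. Of these pairs, the arrays of replicate 3 also shared a batch. For medial E10.5 and E11.5 the deviations correlated at 0.59 and 0.39, and there all equal numbers shared a batch.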

Additional observations from a re-analysis of the deposited data

Results flagged for a closer look

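From E9.7 to E10.5, 2 members moved in opposite directions in the tissues, on every E10.5 array against the single E9.7 array of the same tissue. The share of all genes that moved in this way was not computed, so this number of members has nothing to be set against. Scx was lower in medial tissue (-0.37) and higher in lateral tissue (0.87), so the medial change minus the lateral change was -1.24 ± 0.35 (log2 ± SE). Fbln5 was higher in medial (0.73) and slightly lower in lateral tissue (-0.15), a difference of 0.88 ± 0.32. Within batch 1, which held both E9.7 arrays and 1 E10.5 array of each tissue, Scx was at -0.07 in medial and 0.97 in lateral tissue, and Fbln5 at 0.97 and -0.17. The difference of changes was tested in limma with the E9.7 arrays assumed to vary like the replicated groups. Neither passed (adjusted p = 1 for both, unadjusted p = 0.00635 for Scx and 0.0226 for Fbln5), and 0 of 11968 genes did, with 231 at an unadjusted p under 0.05. With the mean of all probe sets, the lateral change of Fbln5 was 0.02.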

How the results depend on the processing

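The main counts of members were 5 (medial against lateral, E10.5), 6 (E11.5 against E10.5), 5 (E14.5 against E11.5), 4 (medial against lateral, E9.7), 1 (medial E10.5 against E9.7) and 2 (lateral E10.5 against E9.7). With the values as deposited, in which arrays of low signal were not brought to the common scale, the counts were 0 in both tested comparisons and 0 for medial E10.5 against E9.7, Tnc at E10.5 turned to -0.23 (adjusted p = 0.856), and Scx at E14.5 against E11.5 to 0.94. Leaving out 1 array gave 3 to 4 at E10.5 (3 without medial replicate 3 or lateral replicate 1 or 3), 4 to 6 at E11.5, and 1 to 2 for medial E10.5 against E9.7, where leaving out replicate 1, an array of low signal, gave 2. Asking for 2-fold as well gave 3 at E10.5. At 1.5-fold, medial E10.5 against E9.7 had 2 and lateral E10.5 against E9.7 had 4. The share of all genes at that fold is not printed for them, so these counts have nothing to be set against. For E14.5 against E11.5 the share of all genes went from 14.2% at 2-fold to 28.2% at 1.5-fold. The mean of all probe sets gave 1 in the latter, since the dim probe set of Tnc entered its mean. The fit with lone arrays gave 1 at E9.7 and 1 for lateral E10.5 against E9.7. The replicate block gave 4 members and 619 genes at E10.5, where samples of equal number share a batch for replicate 3 only. It gave 6 members and 1188 genes at E11.5, where all samples of equal number share a batch. Of the other values of single members under alternatives, 410 kept their direction and call or stayed within the spread, 47 untested ones moved further, 29 lost the call and 1 gained it.

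Over all genes, the count at E10.5 was 554, with 313 and 308 without lateral replicates 2 and 3, 358 with centring, 251 with 2-fold, 1254 with batch, 2833 with array weights and 2 as deposited. At E11.5 it was 828, with 455 with centring, 544 and 515 without E11.5 replicates 1 and 2, 487 with only the groups compared, 422 with 2-fold, 2182 with batch and 1 as deposited. The untested counts ranged from 1552 to 4805 (main 1839) for E14.5, 20 to 639 (main 211) for E9.7, 57 to 433 (main 118) for medial and 117 to 633 (main 158) for lateral E10.5 against E9.7. Centring moved the median of all genes from -0.01 to 0.11 at E10.5 and from 0.08 to 0.37 at E14.5, and to -0.22 and -0.29 in medial and lateral E10.5 against E9.7. Signal limits Mkx, Tnmd and, before E14.5, Thbs2, whose differences rest on dim probe sets. Low signal also limits Scx, with dim means in medial E10.5 (4.68) and lateral E9.7 tissue (4.63). Thbs4 was likewise dim in medial tissue at E9.7 (3.31) and E10.5 (3.99).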
